A study of Homo sapiens with 48 samples.

Results

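The genes described here are 43 DNA replication genes out of 25066 in a table of gene counts from lymphoma cells. They were chosen by name for their place at the origin or the fork: E2F factors, origin licensing, the MCM2-7 helicase, origin firing, the clamp and its loaders, polymerases and primase, Okazaki fragment processing and RPA, chromatin assembly behind the fork, and fork protection. The table held 40 of them under their current symbol, and ORC1, ORC6 and CDC45 were found by gene ID under the older symbols ORC1L, ORC6L and CDC45L. All 43 passed the filter on low counts, which left 13881 genes to test.

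The cells were TMD8 and HBL1, established lines of the activated B cell type of diffuse large B cell lymphoma, which depend on chronic B cell receptor signalling. All groups of both lines carried Cas9, and the labels do not say whether either engineered line was a single clone. Each line was given 5 µM NGI-1, an inhibitor of the oligosaccharyltransferase that attaches N-linked glycans in the endoplasmic reticulum, 50 nM acalabrutinib, an inhibitor of the B cell receptor kinase BTK, 20 nM copanlisib, an inhibitor of PI3 kinase, or DMSO, the solvent. RNA was sequenced after 3, 6 and 24 h from 2 replicates of each group, which gave 24 groups and 48 libraries.

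Replication origins are licensed in G1, when the origin recognition complex, CDC6 and CDT1 load the MCM2-7 ring onto DNA as an inactive helicase. In S phase CDC7 kinase, MCM10, CDC45 and the GINS complex turn that ring into a moving helicase, and the fork behind it carries the clamp PCNA, its loaders, polymerases, ligase and chromatin assembly factors. Many of these genes are transcribed under E2F factors as cells pass from G1 into S phase. In B cells, antigen receptor signalling through BTK and PI3 kinase is one of the inputs that drive that passage.

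Libraries held between 7165377 and 11999050 counted reads, and every group had at least 121 reads for each of the 43 genes over its replicates. B cell markers summed to between 6600 and 9360 CPM, the count scaled by TMM library size, in TMD8 libraries and between 4410 and 6860 CPM in HBL1 libraries. The 7 T and NK cell markers summed to at most 0.483 CPM in any library, and CD3D in TMD8 and CD2 in HBL1 were at 0. The 7 myeloid markers summed to at most 2.53 CPM in TMD8 and 3.46 CPM in HBL1. The 7 stromal and epithelial markers were not absent: they summed to between 7.88 and 17.6 CPM in TMD8 and between 12.8 and 24.4 CPM in HBL1. The highest of them on average were KRT8 in TMD8 (8.48 CPM) and EPCAM in HBL1 (10.3 CPM). Replicates differed by more than sampling noise in every group, with a chi-square per degree of freedom between 2.63 and 9.04. Since the labels do not say that replicates came from separate cultures, the p-values cover the spread among these libraries alone. In bulk RNA, fewer cells in S phase and less of a transcript per cell cannot be told apart.

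At 24 h most of the replication genes were lower with each of the 3 compounds than with DMSO, in both lines. A gene lowered by a compound is one lower than with DMSO at the same time, which need not be a decline since 3 h. A gene is called here when its adjusted p is under 0.05 in edgeR's quasi-likelihood test, with Benjamini-Hochberg adjustment over all genes tested. With NGI-1, 36 of 43 were lower than with DMSO in TMD8, where 14.9% of all genes were called lower, and 24 of 43 in HBL1, where 11.4% were. With acalabrutinib 34 were lower in TMD8, against 15.5% of all genes, and 38 in HBL1, against 11.4%. With copanlisib 32 were lower in TMD8, against 16% of all genes, and 40 in HBL1, against 17.8%.

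The median log2 difference from DMSO over the 43 genes was -0.52 with NGI-1, -0.47 with acalabrutinib and -0.46 with copanlisib in TMD8. In HBL1 it was -0.34 with NGI-1, -0.61 with acalabrutinib and -0.71 with copanlisib. The median over all genes tested lay between -0.02 and 0.01 in these 6 comparisons. The 3 comparisons within a line share the same DMSO libraries, so their results are not independent of each other. Both treated libraries lay below both DMSO libraries at 24 h for between 38 and 42 of the 43 genes, and for between 29.5% and 34% of all genes. They lay above them for between 24.5% and 33.5% of all genes. With 2 libraries a group, such separation is thus common for any single gene. The copanlisib median in TMD8 was -0.30 without copanlisib replicate 2 and -0.64 without copanlisib replicate 1. In TMD8 called genes numbered 22 instead of 35 without acalabrutinib replicate 2, and 16 instead of 33 without copanlisib replicate 2. With NGI-1 in HBL1, 25 called genes became 9 without DMSO replicate 1, 10 without NGI-1 replicate 1 and 12 without NGI-1 replicate 2.

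**Figure D1:**
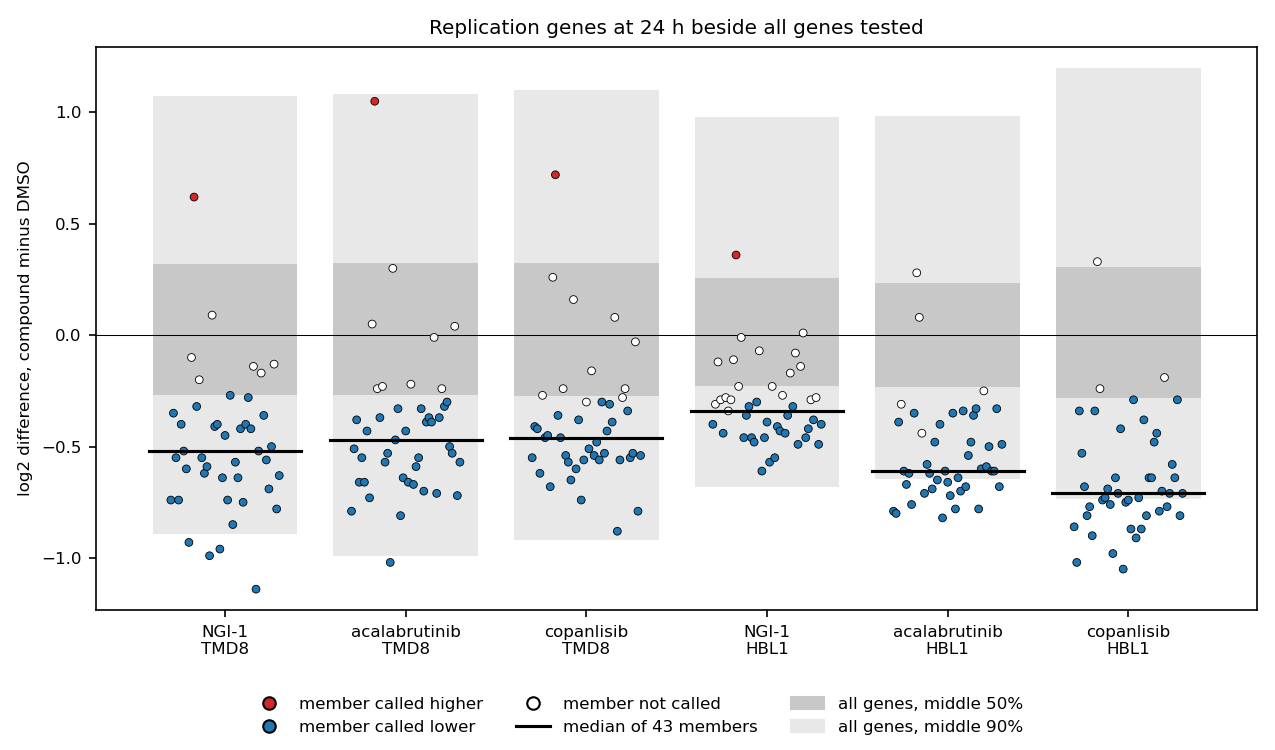
Log2 difference from DMSO at 24 h (vertical axis) of the 43 replication genes, 1 point per gene, for NGI-1, acalabrutinib and copanlisib in TMD8 and HBL1. Grey bands hold the middle 50% and 90% of all 13881 genes; the median of the replication genes, drawn as a line, is lowest with copanlisib in HBL1 at -0.71 and least low with NGI-1 in HBL1 at -0.34.

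Across the 6 comparisons at 24 h, 19 genes were called lower in all 6: ORC1, MCM2, MCM4, MCM6, MCM7, MCM10, CDC45, GINS1, GINS2, GINS4, PCNA, RFC3, RFC5, POLA1, POLD1, POLE2, FEN1, UHRF1 and TIPIN. Another 13 were lower in 5 of 6, namely ORC6, CDC6, MCM3, CDC7, RFC2, RFC4, DSCC1, POLA2, PRIM1, LIG1, CHAF1A, CHAF1B and CLSPN. E2F8 and CDT1 were lower in 4, E2F7, MCM5 and GINS3 in 3, and E2F1, E2F3, POLE and RPA2 in 2. PRIM2, the large primase subunit, was called in none, with log2 differences between -0.28 and 0.01. E2F2 was never lower, and was the only one of the 43 called higher at 24 h.

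**Figure D2:**
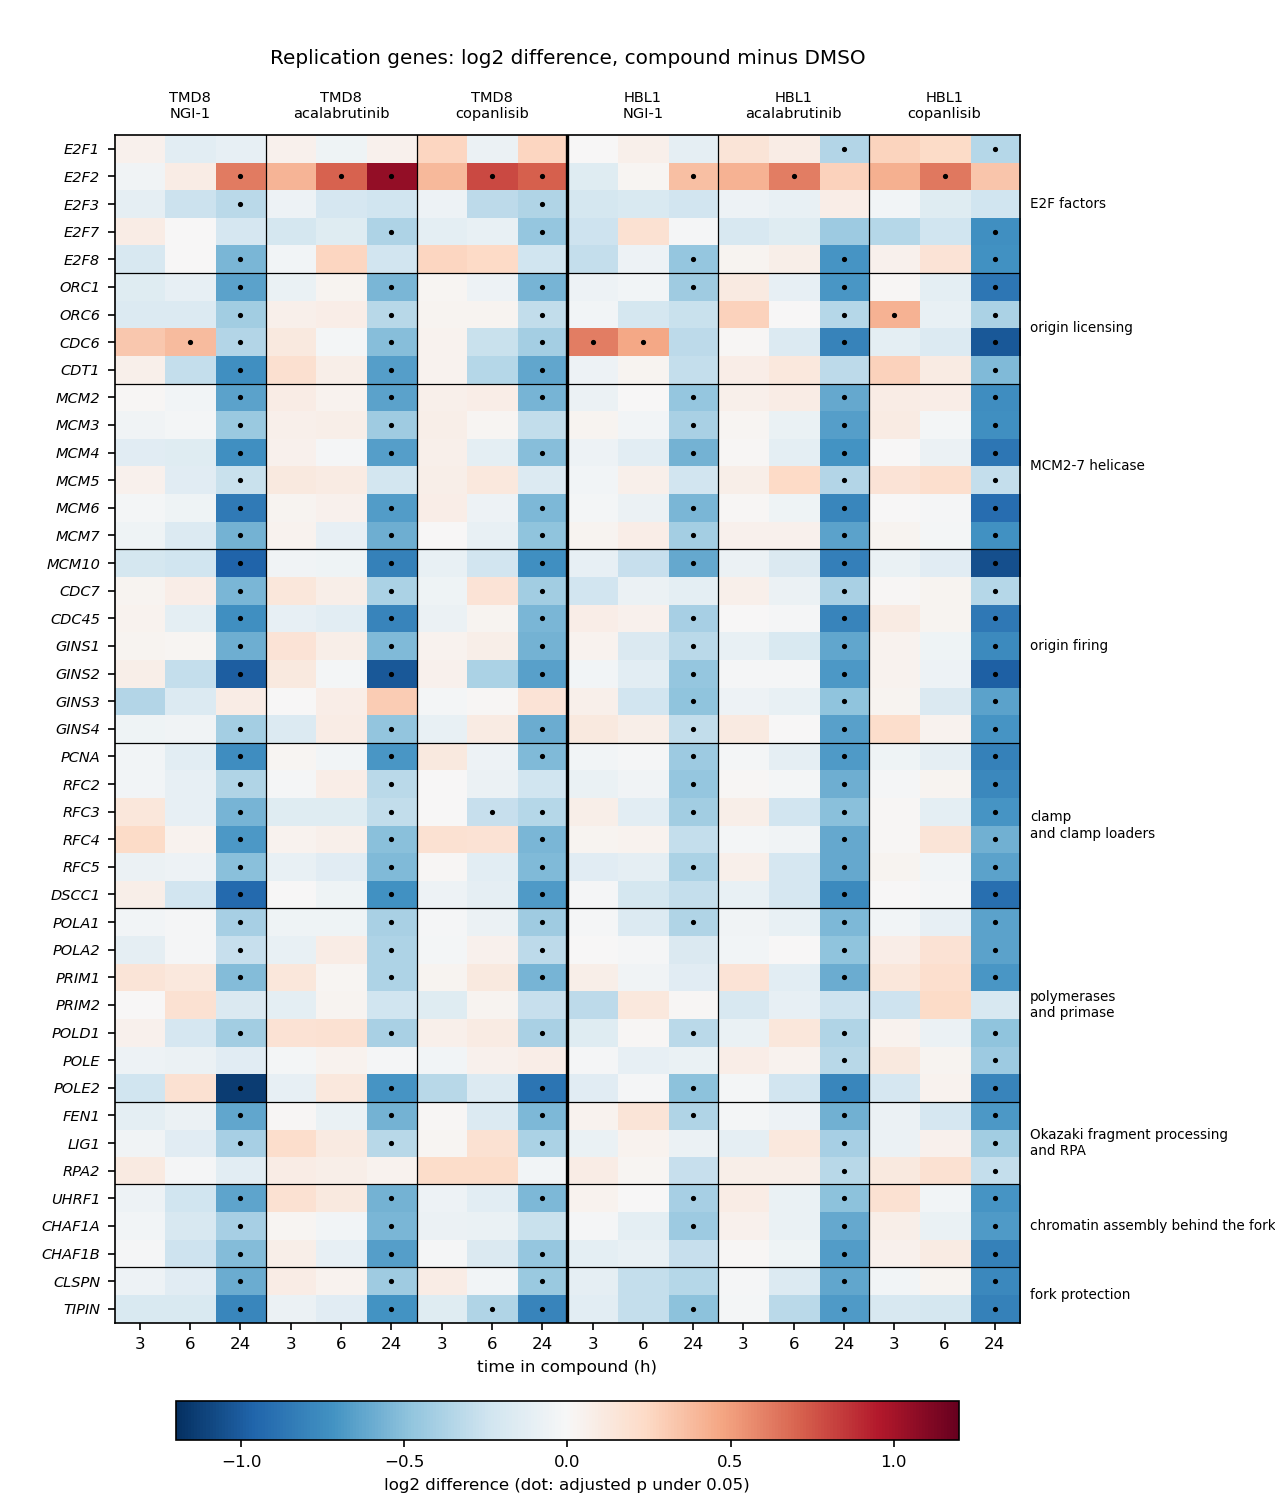
Log2 difference from DMSO of each replication gene (rows, grouped by role) at 3, 6 and 24 h (columns) for NGI-1, acalabrutinib and copanlisib in TMD8 and HBL1, with a dot where the adjusted p is under 0.05. The blue 24 h columns hold between 24 and 40 genes called lower, while the 3 h and 6 h columns hold between 0 and 3 called genes.

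Promoter sequences of 4 of these genes are shown. MCM6, MCM10 and POLE2 were among the genes with the largest change at 24 h in the line that changed less, and POLE2 had the largest single decrease. E2F2 went the other way. The rule for the first 3 also picked CDC45 and TIPIN, whose sequences are not printed. E2F2 was picked for printing after its values were seen. The sequences are RefSeq's on GRCh38.p14, whereas the counts were made on hg19. Each runs from 250 bases before to 50 bases after the annotated start, 5′ to 3′ on the gene's strand, and capitals mark E2F-type and NF-Y-type (CCAAT box) letters on either strand.
MCM6, chr2:135876394-135876693, minus strand: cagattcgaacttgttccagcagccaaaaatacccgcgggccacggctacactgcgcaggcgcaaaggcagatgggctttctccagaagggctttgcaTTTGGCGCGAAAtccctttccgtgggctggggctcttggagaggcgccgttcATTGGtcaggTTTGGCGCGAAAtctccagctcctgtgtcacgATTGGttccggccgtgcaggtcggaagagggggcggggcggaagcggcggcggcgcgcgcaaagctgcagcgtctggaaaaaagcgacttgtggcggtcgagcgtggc
MCM10, chr10:13161308-13161607, plus strand: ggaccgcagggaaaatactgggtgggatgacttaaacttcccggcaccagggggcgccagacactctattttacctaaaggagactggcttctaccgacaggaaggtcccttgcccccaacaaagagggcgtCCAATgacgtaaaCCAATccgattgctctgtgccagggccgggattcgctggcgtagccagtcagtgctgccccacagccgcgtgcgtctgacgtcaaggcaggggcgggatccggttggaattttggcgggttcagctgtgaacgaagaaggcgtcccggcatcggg
POLE2, chr14:49688165-49688464, minus strand: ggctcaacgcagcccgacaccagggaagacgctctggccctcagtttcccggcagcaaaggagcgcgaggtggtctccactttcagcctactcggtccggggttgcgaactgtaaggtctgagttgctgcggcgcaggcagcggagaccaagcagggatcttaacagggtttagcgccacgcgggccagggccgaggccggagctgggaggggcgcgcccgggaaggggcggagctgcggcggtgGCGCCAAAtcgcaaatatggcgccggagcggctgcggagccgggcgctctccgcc
E2F2, chr1:23531184-23531483, minus strand: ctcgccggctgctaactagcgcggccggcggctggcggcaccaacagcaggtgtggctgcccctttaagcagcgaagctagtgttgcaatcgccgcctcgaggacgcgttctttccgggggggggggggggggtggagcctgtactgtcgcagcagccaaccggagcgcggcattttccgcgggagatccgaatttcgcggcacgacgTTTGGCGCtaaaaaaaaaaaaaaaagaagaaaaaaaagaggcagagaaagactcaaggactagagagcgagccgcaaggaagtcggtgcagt
MCM6 held 4 E2F-type matches, overlapping in pairs, and 2 CCAAT boxes. MCM10 held 2 CCAAT boxes and none of the E2F-type letters searched. It does hold TTTGGCGG, which differs from the searched TTTGGCGC in the last base and was not counted. POLE2 held 1 E2F-type match that spans the start, from position -5 to 3 in a numbering without 0, and E2F2 held 1 at -42 to -35. Of the genes not printed, CDC45 held 4 CCAAT boxes and none of the E2F-type letters searched, in the promoter with most matches of its 3. That CDC45 promoter also holds TTTGGCGG, which was not counted. TIPIN held 2 E2F-type matches and no CCAAT box in 1 of its 2 promoters.

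A promoter was found for 37 of the 43 genes, as 49 promoters, since some genes have several annotated starts. E2F8, MCM4, MCM5, GINS4, DSCC1 and RPA2 were not matched. The E2F-type letters searched were TTTCCCGC, TTTGGCGC, TTTCGCGC and TTTGCCGC, on both strands. Only exact matches counted, so a gene without them may still hold an E2F site with other letters. They were present for 23 of 37 genes (62.2%), against 3.99% of all 27305 genes in the table and 3.31% of its 35116 promoters. The CCAAT box was present for 22 of 37 (59.5%), against 39.7% of all genes and 34.6% of all promoters, and 14 genes held both kinds of letters. TTTGAA, the core of the CHR element of G2/M promoters, was present only for E2F3 among the 37 (2.7%), against 18.2% of all genes and 15.2% of promoters. These shares of all genes and promoters cover every gene with a promoter sequence, not only the 13881 tested. They were not matched for base composition. Overlapping E2F-type matches were counted separately. For each gene the median log2 difference from DMSO over the 6 comparisons at 24 h was taken. The median of these values was -0.46 over genes with the E2F-type letters searched and -0.54 over genes without, and both are given as a description.

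**Figure D3:**
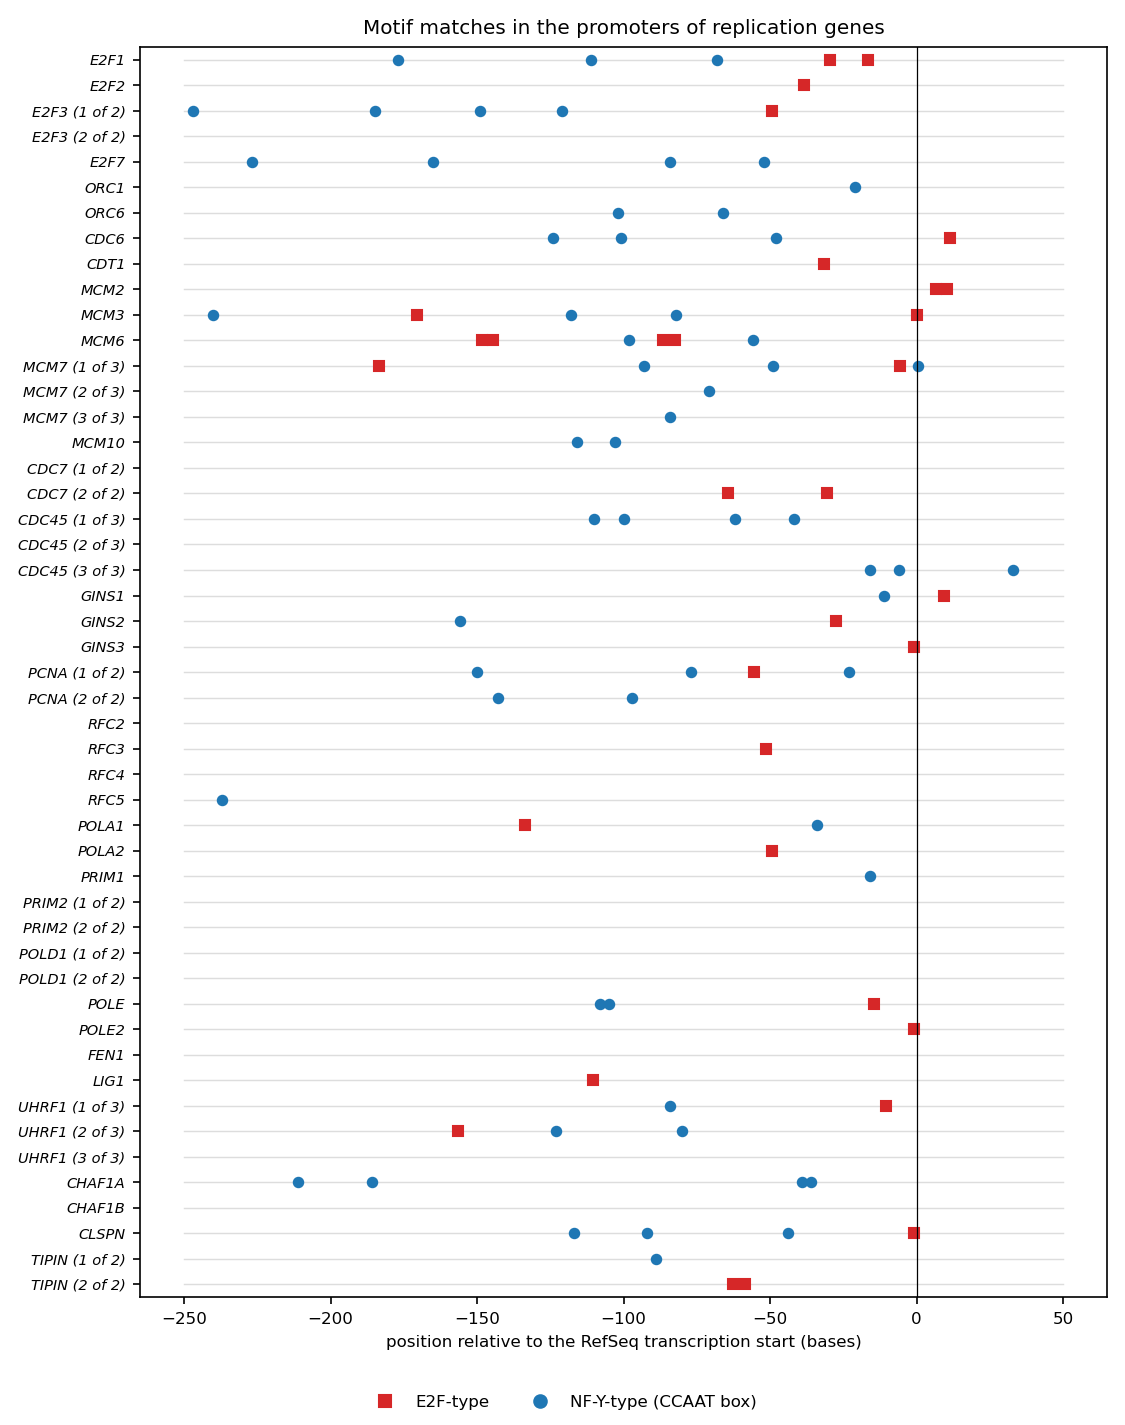
Position of E2F-type (squares) and NF-Y-type (circles) letters relative to the RefSeq transcription start, in bases, for the 49 promoters of 37 replication genes, 1 row per promoter. Genes with several annotated starts have several rows; CHAF1B, FEN1, POLD1, PRIM2, RFC2 and RFC4 hold neither kind of letters.

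Among the E2F factors, the repressor E2F8 was lowered by NGI-1 in both lines and by acalabrutinib and copanlisib in HBL1. Of the 5 factors, NGI-1 lowered 2 in TMD8 and 1 in HBL1, acalabrutinib 1 and 2, and copanlisib 2 and 3. Of all genes, 14.9%, 15.5% and 16% were called lower in TMD8 with NGI-1, acalabrutinib and copanlisib, and 11.4%, 11.4% and 17.8% in HBL1. A count of 1 in 5 is near these shares, which also apply to the counts of the roles below. E2F8 in HBL1 at 24 h had 40 and 42.7 CPM with NGI-1, 33.4 and 36.3 CPM with acalabrutinib and 29.9 and 39.3 CPM with copanlisib, against 53.2 and 61.1 CPM with DMSO. Every treated library was below both DMSO libraries. In TMD8 E2F8 had 35.6 and 32.2 CPM with NGI-1, 44.2 and 40.4 CPM with acalabrutinib and 40.8 and 43.5 CPM with copanlisib, against 49.2 and 50.3 CPM with DMSO. The log2 difference in TMD8 was -0.55 ± 0.14 (SE) with NGI-1 (edgeR adjusted p = 0.0016), but -0.23 and -0.24 with acalabrutinib and copanlisib, at adjusted p = 0.19 and 0.17. With NGI-1 in HBL1 the call was lost without NGI-1 replicate 1 (edgeR adjusted p = 0.094) or DMSO replicate 2 (0.12).

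E2F2, an activator of S phase genes in the textbook account, was higher with the compounds where most of the list was lower. In TMD8 at 24 h it had 46.7 and 47 CPM with NGI-1, 63.2 and 63.3 CPM with acalabrutinib and 50.7 and 49.3 CPM with copanlisib, against 29.9 and 31 CPM with DMSO. All treated TMD8 libraries were above both DMSO libraries, with folds of 1.54, 2.08 and 1.64 and edgeR adjusted p = 0.0012, 3.3e-07 and 0.00022 in that order. In HBL1 E2F2 had 106 and 118 CPM with NGI-1, 98.5 and 113 CPM with acalabrutinib and 94.4 and 124 CPM with copanlisib, against 76.1 and 98 CPM with DMSO. Here the 2 DMSO libraries lay far apart, and copanlisib overlapped them. The HBL1 log2 differences were 0.36 ± 0.13 with NGI-1 (edgeR adjusted p = 0.046), 0.28 ± 0.13 with acalabrutinib (0.13) and 0.33 ± 0.13 with copanlisib (0.054). The NGI-1 call in HBL1 was lost without DMSO replicate 1 (edgeR adjusted p = 0.53), NGI-1 replicate 1 (0.064), or with NGI-1 replicate 2 left out (0.28). E2F2 was the 1 gene of the list called higher at 24 h in TMD8 with each compound, where 15.7% of all genes were called higher with NGI-1, 15.5% with acalabrutinib and 15.8% with copanlisib. In HBL1 it was the 1 called higher with NGI-1, against 7.95% of all genes. No gene of the list was called higher there by edgeR with acalabrutinib or copanlisib, against 7.62% and 12.7% of all genes.

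Licensing genes were lower than with DMSO at 24 h with all 3 compounds, all 4 of them in TMD8 each time. In HBL1, 1 was lower with NGI-1, 3 with acalabrutinib and 4 with copanlisib. ORC1, the largest subunit of the origin recognition complex, had 54.4 and 54.6 CPM with NGI-1, 63.1 and 53 CPM with acalabrutinib and 67 and 47.2 CPM with copanlisib, against 88.5 and 81.1 CPM with DMSO, in TMD8 at 24 h. In HBL1 ORC1 had 106 and 103 CPM with NGI-1, 88.9 and 83.9 CPM with acalabrutinib and 72.7 and 80.8 CPM with copanlisib, against 148 and 133 CPM with DMSO. No treated library of either line reached a DMSO library. The largest decrease was -0.87 ± 0.12 on the log2 scale with copanlisib in HBL1 (edgeR adjusted p = 6.7e-07) and the smallest -0.43 ± 0.12 with NGI-1 in HBL1 (0.009). ORC1 lost its call with NGI-1 in HBL1 without DMSO replicate 1 (edgeR adjusted p = 0.14), or with NGI-1 replicate 2 left out (0.07), and with copanlisib in TMD8 without copanlisib replicate 2 (0.088).

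CDC6, which loads the helicase together with CDT1, was higher with NGI-1 at 3 and 6 h in HBL1 and at 6 h in TMD8, and lower at 24 h in TMD8. In HBL1 CDC6 had 107 and 90.7 CPM with NGI-1 at 3 h, against 66 and 63.2 CPM with DMSO. At 6 h it had 96.2 and 97.8 CPM with NGI-1, against 76 and 64.6 CPM with DMSO, and at 24 h 78.5 and 80.5 CPM with NGI-1, against 101 and 95.9 CPM with DMSO. NGI-1 libraries were thus above DMSO libraries at 3 and 6 h and below them at 24 h. In HBL1, 15.6% of all genes at 3 h and 19.4% at 6 h lay above DMSO in this way, and 29.5% lay below it at 24 h. The log2 differences in HBL1 were 0.61 ± 0.12 at 3 h, 0.46 ± 0.12 at 6 h and -0.31 ± 0.12 at 24 h, with edgeR adjusted p = 0.0058, 0.039 and 0.064. In TMD8 CDC6 had 129 and 124 CPM with NGI-1 at 3 h and 132 and 149 CPM at 6 h, against 103 and 100 CPM and 105 and 112 CPM with DMSO. The TMD8 difference at 6 h was 0.38 ± 0.12 (edgeR adjusted p = 0.048), and at 24 h it was -0.35 ± 0.12 (0.022). These early calls are near the threshold: at 6 h both were lost whichever library was left out, with edgeR adjusted p between 0.07 and 0.42, and at 3 h in HBL1 the call was lost without DMSO replicate 1 (0.12), NGI-1 replicate 1 (0.17) or DMSO replicate 2 (0.077). At 24 h in TMD8 it was lost without DMSO replicate 1 (0.28), or with NGI-1 replicate 2 left out (0.16). At 6 h in HBL1 the direct difference of NGI-1 from acalabrutinib was 0.62 ± 0.12 (edgeR adjusted p = 0.00083), and from copanlisib it was 0.62 ± 0.12 (0.00049).

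Most of the helicase subunits MCM2 to MCM7 were lower than with DMSO at 24 h in each comparison. Of the 6, NGI-1 lowered 6 in TMD8 and 5 in HBL1, acalabrutinib 5 and 6, and copanlisib 4 and 6. MCM6 in TMD8 at 24 h had 146 and 137 CPM with NGI-1, 175 and 144 CPM with acalabrutinib and 196 and 152 CPM with copanlisib, against 259 and 250 CPM with DMSO. In HBL1 MCM6 had 281 and 266 CPM with NGI-1, 230 and 238 CPM with acalabrutinib and 209 and 218 CPM with copanlisib, against 417 and 385 CPM with DMSO. Treated and DMSO libraries did not overlap in either line. The folds below DMSO were 1.80 with NGI-1, 1.59 with acalabrutinib and 1.46 with copanlisib in TMD8, and 1.47, 1.72 and 1.88 in HBL1, with edgeR adjusted p between 5.9e-08 and 0.00037. The order of the compounds was opposite in the 2 lines, but the line difference of MCM6 was not called for any compound at 24 h.

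MCM4, also a ring subunit, had 266 and 250 CPM with NGI-1, 304 and 242 CPM with acalabrutinib and 345 and 259 CPM with copanlisib, against 434 and 426 CPM with DMSO, in TMD8 at 24 h. In HBL1 MCM4 had 571 and 545 CPM with NGI-1, 492 and 517 CPM with acalabrutinib and 435 and 477 CPM with copanlisib, against 841 and 820 CPM with DMSO. All 12 treated libraries were below the DMSO libraries of their line. MCM4 lost its call with copanlisib in TMD8 without copanlisib replicate 2, at edgeR adjusted p = 0.11 and a log2 difference of -0.32. MCM5 had log2 differences between -0.35 and -0.16 and 3 calls, whereas those of MCM2 lay between -0.75 and -0.46. Its call with NGI-1 in TMD8 was lost whichever library was left out (edgeR adjusted p between 0.06 and 0.1). In HBL1 it was lost with acalabrutinib without DMSO replicate 1 (0.1) or acalabrutinib replicate 2 (0.068), and with copanlisib without DMSO replicate 1 (0.16) or either copanlisib replicate (0.064 and 0.063).

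Origin firing factors were lowered by each compound. NGI-1 lowered 6 of the 7 in TMD8 and 6 in HBL1, acalabrutinib 6 and 7, and copanlisib 6 and 7. MCM10, which helps to activate the loaded helicase, had 55.7 and 52.8 CPM with NGI-1, 63.4 and 56.3 CPM with acalabrutinib and 70.6 and 54.4 CPM with copanlisib, against 108 and 103 CPM with DMSO, in TMD8 at 24 h. In HBL1 MCM10 had 98.2 and 107 CPM with NGI-1, 82.5 and 94.4 CPM with acalabrutinib and 72.2 and 79.9 CPM with copanlisib, against 163 and 150 CPM with DMSO. Treated libraries stood clear of DMSO libraries throughout, and no library left out ended a call. The log2 differences ran between -1.05 ± 0.12 with copanlisib in HBL1 (edgeR adjusted p = 8.8e-09) and -0.61 ± 0.12 with NGI-1 in HBL1 (0.00016).

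GINS2 and CDC45 are parts of the active helicase. GINS2 in TMD8 at 24 h had 16.1 and 20 CPM with NGI-1, 15.9 and 19.3 CPM with acalabrutinib and 24.2 and 21.2 CPM with copanlisib, against 35.5 and 36 CPM with DMSO. In HBL1 GINS2 had 84.2 and 87.6 CPM with NGI-1, 66.2 and 79.8 CPM with acalabrutinib and 57 and 62.4 CPM with copanlisib, against 120 and 117 CPM with DMSO. The groups did not overlap, and the fold below DMSO reached 2.03 with acalabrutinib in TMD8 (edgeR adjusted p = 1.4e-05) and 1.98 with copanlisib in HBL1 (1.3e-06). With NGI-1 in HBL1 the fold was 1.37 (edgeR adjusted p = 0.018), and GINS2 lost this call whichever of the 4 libraries was left out, at adjusted p between 0.052 and 0.11. CDC45 in HBL1 had 80.8 and 82.4 CPM with NGI-1, 60.1 and 64.4 CPM with acalabrutinib and 56 and 63 CPM with copanlisib, against 109 and 106 CPM with DMSO. In TMD8 CDC45 had 40.5 and 47.8 CPM with NGI-1, 44.9 and 40.3 CPM with acalabrutinib and 54.1 and 46.2 CPM with copanlisib, against 74.8 and 72.5 CPM with DMSO. CDC45 was lower in every treated library than in DMSO libraries of its line, and lost a call only with NGI-1 in HBL1 without DMSO replicate 1 (edgeR adjusted p = 0.056).

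GINS3, another GINS subunit, was lower in HBL1 with each compound at 24 h and was not called in TMD8. In TMD8 at 24 h it had 48.5 and 39.1 CPM with NGI-1, 54.2 and 47.5 CPM with acalabrutinib and 48.1 and 43.8 CPM with copanlisib, against 40.5 and 42 CPM with DMSO. The NGI-1 libraries overlapped DMSO, while the acalabrutinib and copanlisib libraries lay above it without passing the threshold. In HBL1 at 24 h GINS3 had 29 and 32.7 CPM with NGI-1, 32.3 and 29.5 CPM with acalabrutinib and 25 and 30.3 CPM with copanlisib, against 43 and 42.8 CPM with DMSO. All HBL1 treated libraries were below DMSO, at log2 differences of -0.48, -0.48 and -0.64 and edgeR adjusted p = 0.0057, 0.0063 and 0.00017. Calls in HBL1 were lost with NGI-1 without NGI-1 replicate 1 (edgeR adjusted p = 0.10), and with acalabrutinib without DMSO replicate 1 (0.051) or acalabrutinib replicate 2 (0.084).

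**Figure D4:**
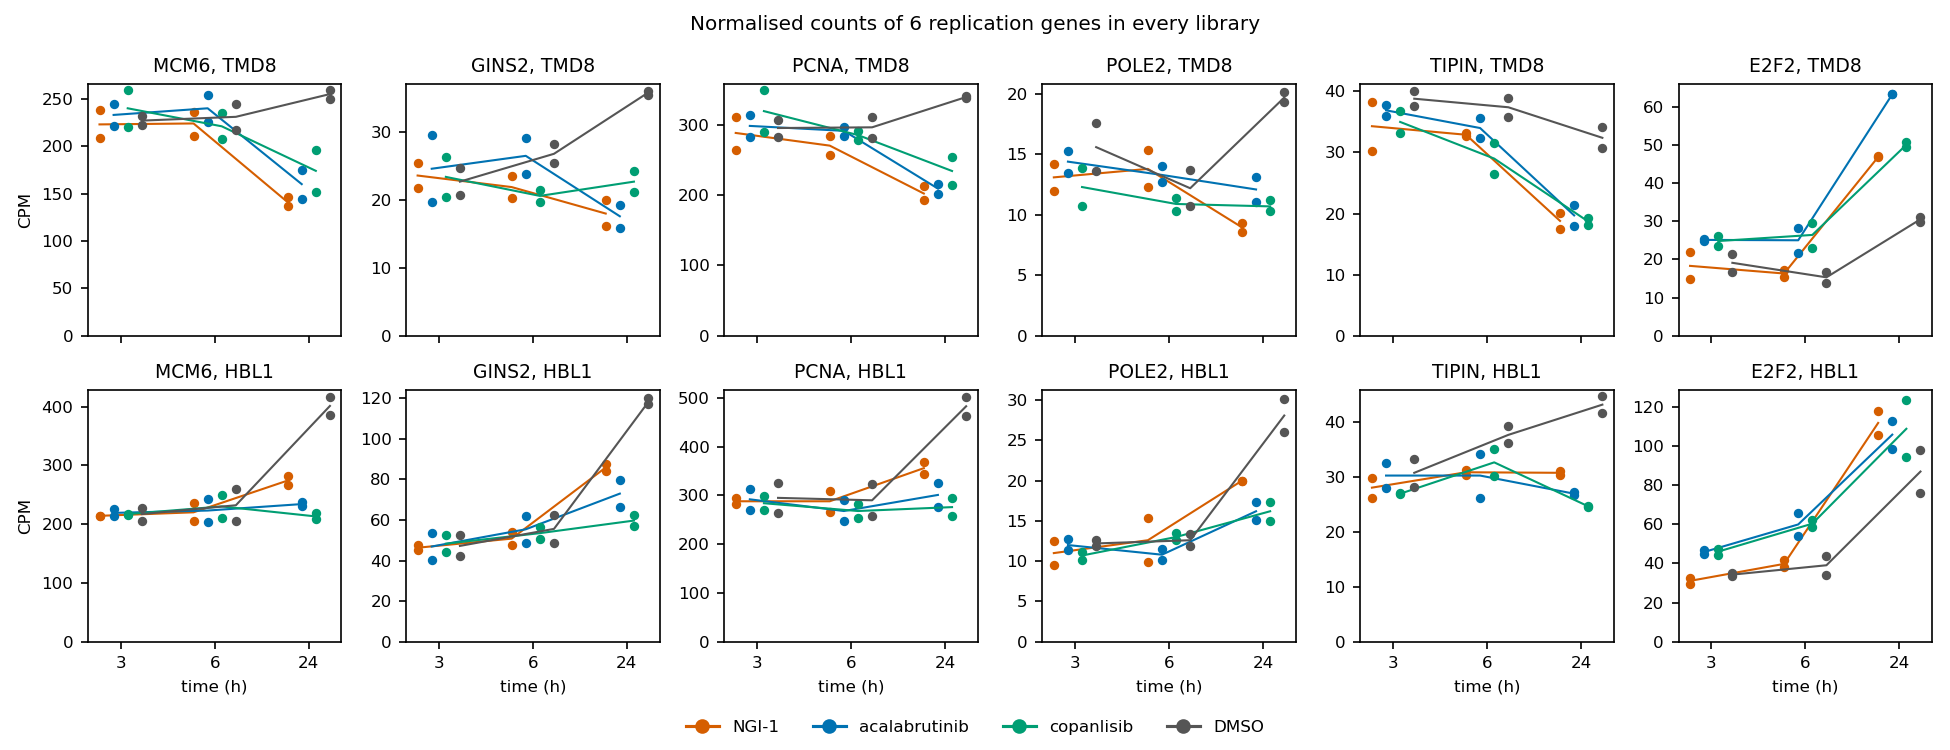
CPM (vertical axis, from 0) of MCM6, GINS2, PCNA, POLE2, TIPIN and E2F2 at 3, 6 and 24 h in TMD8 (upper row) and HBL1 (lower row), 1 point per library with lines through the group means. For MCM6 at 24 h the treated libraries lie between 137 and 196 CPM in TMD8 and between 209 and 281 CPM in HBL1, below the DMSO libraries, whereas in the E2F2 panels the DMSO mean is the lowest at 24 h.

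The sliding clamp and its loaders were lowered as well: NGI-1 lowered 6 of 6 in TMD8 and 4 in HBL1, acalabrutinib 6 and 6, and copanlisib 5 and 6. PCNA, the clamp that tethers polymerases to DNA, had 193 and 212 CPM with NGI-1, 216 and 202 CPM with acalabrutinib and 254 and 214 CPM with copanlisib, against 337 and 341 CPM with DMSO, in TMD8 at 24 h. In HBL1 PCNA had 344 and 369 CPM with NGI-1, 276 and 325 CPM with acalabrutinib and 257 and 294 CPM with copanlisib, against 503 and 463 CPM with DMSO. Both lines had all treated libraries below DMSO. PCNA log2 differences ran between -0.81 ± 0.12 with copanlisib in HBL1 (edgeR adjusted p = 7.4e-07) and -0.44 ± 0.11 with NGI-1 in HBL1 (0.0046), and the call with NGI-1 in HBL1 was lost without DMSO replicate 1 (0.078), or with NGI-1 replicate 1 left out (0.065).

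DSCC1, a subunit of an alternative clamp loader, was the 1 gene of the 43 with a called line difference for NGI-1 at 24 h. That was against 2.51% of all genes, and DSCC1 lost the call without some single libraries. In TMD8 at 24 h it had 19.4 and 21.7 CPM with NGI-1, 23.1 and 24 CPM with acalabrutinib and 24.6 and 24.1 CPM with copanlisib, against 36.7 and 41.6 CPM with DMSO. In HBL1 DSCC1 had 47.9 and 49.1 CPM with NGI-1, 31.2 and 38.4 CPM with acalabrutinib and 28.9 and 34.9 CPM with copanlisib, against 60.3 and 58.2 CPM with DMSO. NGI-1 was the lowest treatment in TMD8 and the highest of the 3 compounds in HBL1, where its difference from DMSO, -0.29 ± 0.11, was not called (edgeR adjusted p = 0.064).

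Polymerase and primase genes were more uneven. Of the 7, NGI-1 lowered 5 in TMD8 and 3 in HBL1, acalabrutinib 5 and 6, and copanlisib 5 and 6. POLE2, the second subunit of the leading strand polymerase, had 8.62 and 9.31 CPM with NGI-1, 11.1 and 13.1 CPM with acalabrutinib and 11.2 and 10.3 CPM with copanlisib, against 19.3 and 20.2 CPM with DMSO, in TMD8 at 24 h. In HBL1 POLE2 had 20 and 20 CPM with NGI-1, 15.1 and 17.4 CPM with acalabrutinib and 15 and 17.4 CPM with copanlisib, against 26 and 30.2 CPM with DMSO. No treated library overlapped a DMSO library. The decrease of POLE2 with NGI-1 in TMD8, 2.20-fold (edgeR adjusted p = 4.1e-06), was the largest of the 43 genes in any comparison with DMSO. With NGI-1 in HBL1 the POLE2 call (-0.49 ± 0.16, edgeR adjusted p = 0.025) was lost without NGI-1 replicate 1 (0.11), NGI-1 replicate 2 (0.11) or DMSO replicate 2 (0.18). POLE, the catalytic subunit of the same enzyme, had log2 differences of -0.14, -0.01 and 0.08 in TMD8 with NGI-1, acalabrutinib and copanlisib, none called. In HBL1 POLE was called lower with acalabrutinib (-0.33) and copanlisib (-0.44) and not with NGI-1 (-0.08). The acalabrutinib call was lost whichever library was left out, at edgeR adjusted p between 0.07 and 0.23.

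Lagging strand genes behaved likewise, with 2 of 3 lower in TMD8 for each compound and 1, 3 and 3 lower in HBL1 for NGI-1, acalabrutinib and copanlisib. FEN1, the nuclease that trims Okazaki fragment flaps, had 127 and 135 CPM with NGI-1, 144 and 127 CPM with acalabrutinib and 158 and 117 CPM with copanlisib, against 206 and 196 CPM with DMSO, in TMD8. In HBL1 FEN1 had 219 and 196 CPM with NGI-1, 178 and 178 CPM with acalabrutinib and 166 and 165 CPM with copanlisib, against 282 and 251 CPM with DMSO. FEN1 was below DMSO in every treated library at 24 h. It lost its call with NGI-1 in HBL1 without DMSO replicate 1 (edgeR adjusted p = 0.28), NGI-1 replicate 1 (0.055), or with NGI-1 replicate 2 left out (0.25), and with copanlisib in TMD8 without copanlisib replicate 2 (0.089).

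Of the chromatin assembly genes, all 3 were lower in TMD8 with NGI-1 and acalabrutinib and 2 with copanlisib, and in HBL1 2 were lower with NGI-1 and 3 with each of the others. UHRF1, which reads hemimethylated DNA behind the fork, had 57 and 62.9 CPM with NGI-1, 70.1 and 55 CPM with acalabrutinib and 70.3 and 57.1 CPM with copanlisib, against 98.9 and 87.3 CPM with DMSO, in TMD8 at 24 h. In HBL1 UHRF1 had 106 and 106 CPM with NGI-1, 102 and 97.6 CPM with acalabrutinib and 79.3 and 91.9 CPM with copanlisib, against 145 and 135 CPM with DMSO. The groups did not overlap. The UHRF1 call with NGI-1 in HBL1 was lost without DMSO replicate 1 (edgeR adjusted p = 0.17), NGI-1 replicate 1 (0.097), or with NGI-1 replicate 2 left out (0.11). With acalabrutinib in HBL1 it was lost without DMSO replicate 1 (0.075) or acalabrutinib replicate 2 (0.056), and in TMD8 without acalabrutinib replicate 2 (0.069) or, for copanlisib, copanlisib replicate 2 (0.074).

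Both fork protection genes were lower in TMD8 with each compound, and in HBL1 with acalabrutinib and copanlisib, whereas NGI-1 lowered only TIPIN there. TIPIN, which stabilises paused forks together with TIMELESS, had 20.1 and 17.5 CPM with NGI-1, 21.4 and 17.9 CPM with acalabrutinib and 19.3 and 18.2 CPM with copanlisib, against 34.1 and 30.7 CPM with DMSO, in TMD8 at 24 h. In HBL1 TIPIN had 31.1 and 30.3 CPM with NGI-1, 26.6 and 27.3 CPM with acalabrutinib and 24.6 and 24.5 CPM with copanlisib, against 44.7 and 41.5 CPM with DMSO. All treated libraries were lower than DMSO. Its decrease lay between 1.41-fold and 1.76-fold, and it lost a call only with NGI-1 in HBL1 without DMSO replicate 1 (edgeR adjusted p = 0.062).

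At 3 h few replication genes were called, as few genes were in all. NGI-1 changed 0 of 43 in TMD8, where 0.771% of all genes were called, and 1 in HBL1, where 0.353% were. Acalabrutinib changed 0 in TMD8 (0.389% of all genes) and 0 in HBL1 (0.245%), and copanlisib 0 in TMD8 (1.76%) and 1 in HBL1 (2.1%). The called genes were CDC6 with NGI-1 and ORC6 with copanlisib, both higher. Where edgeR made no call, the unadjusted p was under 0.05 for 2 genes with NGI-1 in TMD8, 1 and 2 with acalabrutinib in TMD8 and HBL1 and 2 with copanlisib in TMD8, and DESeq2 called 0 in each. With a replicate block within each line and time the counts were 2, 0 and 1 in TMD8 and 1, 1 and 4 in HBL1 for NGI-1, acalabrutinib and copanlisib. The ORC6 call (0.42 ± 0.11, edgeR adjusted p = 0.036) was lost without copanlisib replicate 1 (0.22), copanlisib replicate 2 (0.17) or DMSO replicate 2 (0.49), and in that last case the log2 difference was 0.25.

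At 6 h NGI-1 changed 1 gene in TMD8, against 4.33% of all genes, and 1 in HBL1, against 1.13%, which was CDC6 in both. Acalabrutinib changed 1 in TMD8 (4.64% of all genes) and 1 in HBL1 (5.65%), and copanlisib 3 in TMD8 (14.6%) and 1 in HBL1 (9.53%). The replicate block gave 5, 1 and 11 in TMD8 and 2, 4 and 5 in HBL1. E2F2 was the gene called with these 2 compounds in both lines, with RFC3 and TIPIN lower beside it for copanlisib in TMD8. E2F2 at 6 h had 21.7 and 28.2 CPM with acalabrutinib and 23.1 and 29.6 CPM with copanlisib, against 13.9 and 16.7 CPM with DMSO, in TMD8. In HBL1 E2F2 had 65.9 and 54.2 CPM with acalabrutinib and 62.4 and 58.5 CPM with copanlisib, against 43.8 and 34.3 CPM with DMSO. The groups did not overlap, and NGI-1 libraries, at 15.5 and 17.1 CPM in TMD8 and 41.6 and 38 CPM in HBL1, overlapped DMSO in both lines. With acalabrutinib and copanlisib, both treated libraries lay above both DMSO libraries for 24.2% and 30.7% of all genes in TMD8. In HBL1 they did so for 23.5% and 25.4%.

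The log2 differences of E2F2 at 6 h were 0.71 ± 0.17 with acalabrutinib and 0.79 ± 0.17 with copanlisib in TMD8, and 0.61 ± 0.14 and 0.63 ± 0.14 in HBL1, with edgeR adjusted p = 0.0091, 0.00093, 0.0058 and 0.0025. The acalabrutinib call in TMD8 was lost without DMSO replicate 1 (edgeR adjusted p = 0.23) or acalabrutinib replicate 2 (0.32), and in HBL1 without acalabrutinib replicate 1 (0.15) or DMSO replicate 2 (0.13). The copanlisib call was lost in TMD8 without copanlisib replicate 2 (0.074) and in HBL1 without DMSO replicate 2 (0.088). RFC3, a clamp loader subunit, had a log2 difference of -0.28 with copanlisib in TMD8 (edgeR adjusted p = 0.029), and that of TIPIN was -0.36 (0.042). The count of 3 called genes became 1 whichever of the 4 libraries was left out. RFC3 lost its call whichever library was left out, at adjusted p up to 0.23. TIPIN lost its call without DMSO replicate 1 (0.28), copanlisib replicate 1 (0.36) or DMSO replicate 2 (0.069).

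The DMSO libraries themselves moved over time in both lines. In HBL1, 42 of 43 genes were higher at 24 h than at 3 h with DMSO, where 20.8% of all genes were called higher, and none was lower, against 19.2%. Only E2F3 was not called, at a log2 difference of 0.10. In TMD8, 17 were higher, against 16.9% of all genes, and 2 were lower, against 15.9%. The median over the 43 genes was 0.95 in HBL1 and 0.25 in TMD8. The 2 lower genes in TMD8 were E2F3 (-0.40) and GINS3 (-0.48). CDC45 in HBL1 had 109 and 106 CPM at 24 h, against 47 and 45.6 CPM at 3 h, a 2.32-fold difference (edgeR adjusted p = 1.2e-11). GINS2 in HBL1 had 120 and 117 CPM at 24 h, against 52.4 and 42 CPM at 3 h, and MCM6 had 417 and 385 CPM at 24 h, against 228 and 206 CPM at 3 h. In TMD8 the count of called genes was 9 instead of 19 without DMSO 3 h replicate 1.

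Part of this difference was present with DMSO at 6 h. Against 3 h, in a comparison added after the data had been seen, 6 genes were higher at 6 h in HBL1, where 9.34% of all genes were called: MCM10, GINS1, GINS3, RFC3, RFC5 and UHRF1. Without DMSO 6 h replicate 1 or DMSO 3 h replicate 2 none was called by edgeR. In TMD8 edgeR called 0, against 8.46% of all genes, DESeq2 called 0, and 4 had an unadjusted p under 0.05.

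Each compound was then set against itself at 3 h, in comparisons also added after the data had been seen. In HBL1 at 24 h, 37 genes were higher and 1 lower with NGI-1, against 20.1% and 19.2% of all genes. With acalabrutinib 24 were higher and 0 lower, against 16.1% and 17.1%, and with copanlisib 13 were higher and 0 lower, against 14.9% and 16.8%. The medians were 0.69 with NGI-1, 0.37 with acalabrutinib and 0.18 with copanlisib in HBL1, and 0.95 with DMSO. In TMD8, 3 genes were higher and 20 lower with NGI-1, against 20.9% and 18.5% of all genes. With acalabrutinib 3 were higher and 19 lower, against 22.3% and 20.3%, and with copanlisib 3 were higher and 15 lower, against 20% and 19.1%. The TMD8 medians were -0.27, -0.25 and -0.20 for NGI-1, acalabrutinib and copanlisib, and 0.25 with DMSO.

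MCM6 is an example. In HBL1 MCM6 had 209 and 218 CPM with copanlisib at 24 h, against 216 and 217 CPM with copanlisib at 3 h, and these libraries overlapped. In TMD8 MCM6 had 196 and 152 CPM with copanlisib at 24 h, against 220 and 259 CPM at 3 h, without overlap. TIPIN was called lower at 24 h than at 3 h with every compound in TMD8, with log2 differences between -0.91 and -0.87, and with none in HBL1, where its differences were between -0.17 and 0.13. E2F2, POLA2 and PRIM2 were the 3 genes higher with every compound in TMD8. All 3 were also called higher at 24 h than at 3 h with DMSO there, at log2 differences of 0.69, 0.75 and 0.56. POLA2 and PRIM2 are subunits of the polymerase alpha and primase complex. Leaving out 1 library moved these counts of called genes by more than 1.5 times in 5 of the 6 comparisons. They became 14 instead of 23 without NGI-1 24 h replicate 1, 14 instead of 22 without acalabrutinib 3 h replicate 2, and 10 or 7 instead of 18 without copanlisib 3 h replicate 2 or copanlisib 24 h replicate 2 in TMD8. In HBL1 they became 10 or 13 instead of 24 without acalabrutinib 3 h replicate 2 or acalabrutinib 24 h replicate 2, and 5 instead of 13 without copanlisib 24 h replicate 2.

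**Figure D5:**
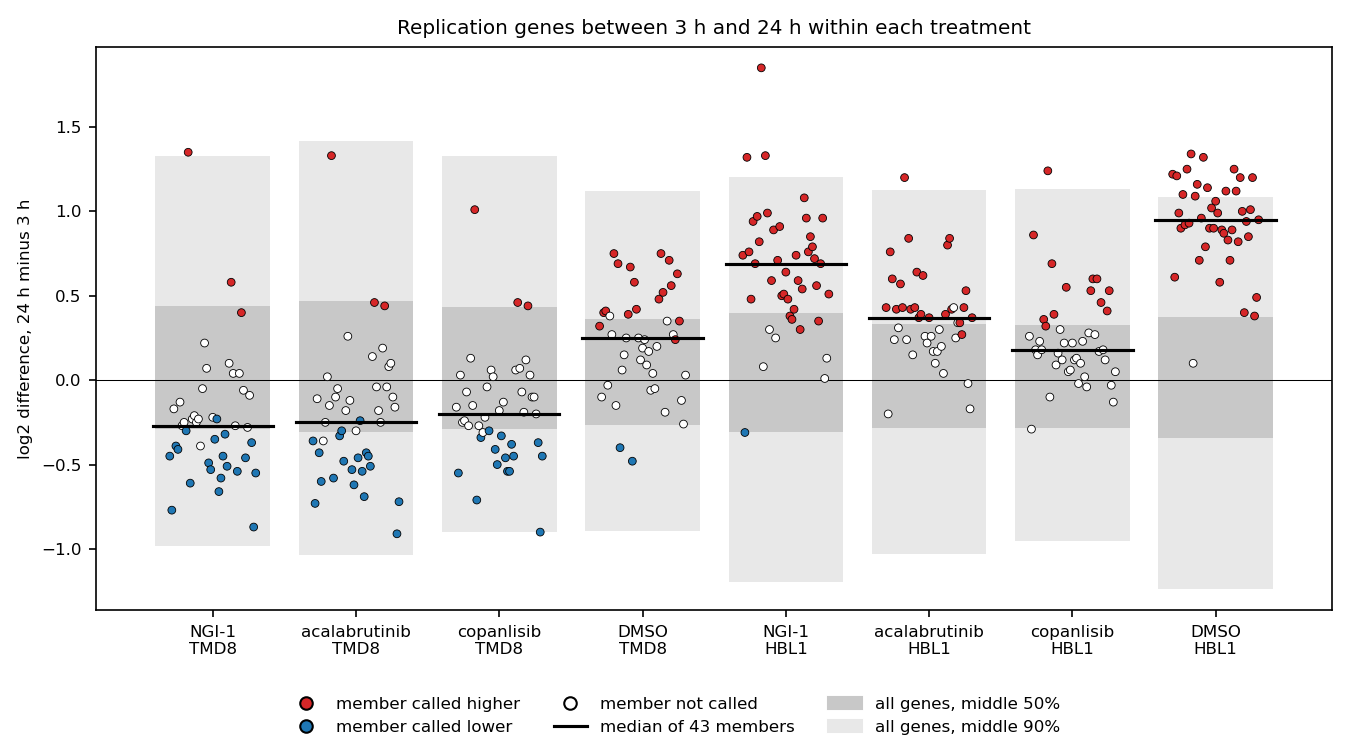
Log2 difference between 24 h and 3 h (vertical axis) of the 43 replication genes within each treatment and line, 1 point per gene, with the median as a line and grey bands for the middle 50% and 90% of all genes. In HBL1 the medians are 0.69 with NGI-1, 0.37 with acalabrutinib, 0.18 with copanlisib and 0.95 with DMSO; in TMD8 they are -0.27, -0.25, -0.20 and 0.25.

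The difference from DMSO was also tested between times, as the compound effect at 24 h minus that at 3 h. In TMD8, 20 genes were lower by this test with NGI-1, against 6.09% of all genes, 19 with acalabrutinib, against 7.88%, and 17 with copanlisib, against 5.82%. In HBL1, 3 were lower with NGI-1, against 2.59% of all genes, 22 with acalabrutinib, against 2%, and 35 with copanlisib, against 5.73%. None was higher in any of the 6 tests by edgeR. With a replicate block within each line and time the lower genes numbered 32, 31 and 31 in TMD8 and 22, 38 and 38 in HBL1, and 2 were higher with NGI-1 and 1 with acalabrutinib in TMD8 and 1 with NGI-1 in HBL1. The median change was -0.50, -0.52 and -0.48 in TMD8 and -0.35, -0.61 and -0.75 in HBL1, for NGI-1, acalabrutinib and copanlisib. These counts rest on 8 libraries each and moved with single ones. In TMD8 the NGI-1 count was 11 without DMSO 3 h replicate 1, 13 without DMSO 24 h replicate 1 and 11 without NGI-1 3 h replicate 2. The acalabrutinib count was 12 without DMSO 3 h replicate 1, 12 without acalabrutinib 3 h replicate 2 and 9 without acalabrutinib 24 h replicate 2. The copanlisib count was 4 without DMSO 3 h replicate 1, 9 without DMSO 24 h replicate 1, 10 without DMSO 24 h replicate 2, 0 without copanlisib 3 h replicate 2 and 1 without copanlisib 24 h replicate 2. In HBL1 the NGI-1 count was 5 without DMSO 3 h replicate 1 and 1 without DMSO 24 h replicate 1, DMSO 3 h replicate 2, NGI-1 24 h replicate 1 or NGI-1 3 h replicate 2. The acalabrutinib count was 8 without acalabrutinib 3 h replicate 1, 10 without DMSO 24 h replicate 1, 5 without acalabrutinib 24 h replicate 1 and 5 without DMSO 3 h replicate 2. The copanlisib count was 22 without copanlisib 24 h replicate 1 and 23 without DMSO 3 h replicate 2.

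The response was then compared between the lines. At 24 h the difference between TMD8 and HBL1 was called for 1 gene with NGI-1, against 2.51% of all genes, 2 with acalabrutinib, against 4.25%, and 3 with copanlisib, against 4.18%. With a replicate block within each line and time edgeR called 12, 6 and 17 genes instead, of which 11 were lower in TMD8 relative to HBL1 with NGI-1, while those called with acalabrutinib or copanlisib were all higher in TMD8 in this sense. DSCC1 was lowered more in TMD8 than in HBL1 with NGI-1, with a difference of -0.64 ± 0.17 on the log2 scale (edgeR adjusted p = 0.027). GINS3 was higher in TMD8 relative to HBL1 with acalabrutinib (0.78 ± 0.18, edgeR adjusted p = 0.0047) and copanlisib (0.80 ± 0.18, 0.004). E2F2 was higher in the same sense with acalabrutinib (0.77 ± 0.20, edgeR adjusted p = 0.014), as were E2F1 (0.60 ± 0.16, 0.02) and CDC6 (0.61 ± 0.17, 0.03) with copanlisib. E2F1 in TMD8 had 51.9 and 53.3 CPM with copanlisib at 24 h, against 43.2 and 44.6 CPM with DMSO, while in HBL1 it had 75.3 and 96 CPM with copanlisib, against 106 and 110 CPM with DMSO. Treated libraries were above DMSO in TMD8 and below it in HBL1. CDC6 in HBL1 had 45.9 and 51.2 CPM with copanlisib, against 101 and 95.9 CPM with DMSO, and in TMD8 82.4 and 60.2 CPM with copanlisib, against 103 and 87.3 CPM with DMSO.

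Each of these line differences lost its call without some library except GINS3 with acalabrutinib. The NGI-1 count was 2 without TMD8 NGI-1 replicate 2. DSCC1 lost its call without TMD8 NGI-1 replicate 1, TMD8 DMSO replicate 2 or any 1 of the 4 HBL1 libraries, with edgeR adjusted p between 0.066 and 0.18. E2F2 lost it without either TMD8 DMSO replicate, HBL1 acalabrutinib replicate 1 or HBL1 DMSO replicate 2, with edgeR adjusted p up to 0.15. E2F1 lost it without either TMD8 DMSO replicate, TMD8 copanlisib replicate 2, HBL1 copanlisib replicate 1 (0.18) or HBL1 DMSO replicate 2. CDC6 lost it without TMD8 copanlisib replicate 1 (0.33), TMD8 DMSO replicate 2 (0.20), either HBL1 DMSO replicate or HBL1 copanlisib replicate 1, and GINS3 with copanlisib without HBL1 copanlisib replicate 1 (0.06). At 3 h edgeR and DESeq2 called 0 genes for each compound, against 0.0072%, 0% and 0.0576% of all genes for NGI-1, acalabrutinib and copanlisib, and at 6 h 0, against 0.0216%, 0.166% and 0.584%. Unadjusted p was under 0.05 for 1, 0 and 1 genes at 3 h and for 0, 0 and 1 at 6 h.

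Set directly against each other at 24 h, NGI-1 differed from the other 2 compounds in HBL1, while in TMD8 no replication gene was called. In HBL1, NGI-1 left 5 genes higher than acalabrutinib did, against 3.18% of all genes called, and 12 higher than copanlisib did, against 5%. The 5 were CDC6, CDC45, GINS4, DSCC1 and PRIM1, and with E2F7, ORC1, MCM10, GINS1, GINS2, POLA2 and CHAF1B they made up the 12. All 43 genes were at or above 0.01 on the log2 scale in the comparison with copanlisib, with a median of 0.31. CDC6 was 0.71 ± 0.12 above copanlisib (edgeR adjusted p = 0.00019) and DSCC1 0.61 ± 0.12 (0.00068), a call that DSCC1 lost without copanlisib replicate 1 (0.067). The 12 became 1 without copanlisib replicate 1, 5 without NGI-1 replicate 1, 7 without copanlisib replicate 2 and 5 without NGI-1 replicate 2. The 5 became 3 without acalabrutinib replicate 2 and 0 without acalabrutinib replicate 1 or either NGI-1 replicate. With a replicate block within each line and time they were 31 and 22, all higher with NGI-1.

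In TMD8 at 24 h, edgeR and DESeq2 called 0 genes between NGI-1 and acalabrutinib, against 1.31% of all genes, and 0 between NGI-1 and copanlisib, against 1.43%, with 4 genes each at an unadjusted p under 0.05. These counts of 0 depended on the fit: with a replicate block within each line and time, edgeR called 3 genes lower with NGI-1 than with acalabrutinib and 6 lower than with copanlisib, and with no filter on low counts 1 lower than with acalabrutinib. Copanlisib against acalabrutinib gave 0 calls by edgeR and DESeq2 at 24 h in TMD8 (0.497% of all genes) and HBL1 (0.101%), with log2 differences between -0.34 and 0.37 in TMD8 and between -0.32 and 0.06 in HBL1. At 6 h the same pair gave 0 in TMD8 (0.281%) and HBL1 (0.0937%), and 3 genes at 6 h in TMD8 and 2 in each other case had an unadjusted p under 0.05. With the replicate block within each line and time this pair gave 1 call in each line at 24 h and 2 at 6 h in TMD8. At 6 h NGI-1 differed from acalabrutinib in 3 genes in TMD8 (3.39% of all genes) and 2 in HBL1 (3.54%), and from copanlisib in 2 in TMD8 (5.89%) and 2 in HBL1 (6.8%). CDC6 was higher and E2F2 lower with NGI-1 in all 4, and POLD1, the catalytic subunit of polymerase delta, was lower than with acalabrutinib in TMD8.

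At 6 h the log2 difference of E2F2 with NGI-1 from acalabrutinib was -0.62 in TMD8 and -0.59 in HBL1, and from copanlisib it was -0.70 and -0.60. The counts at 6 h were 1 without acalabrutinib replicate 1 and 0 without NGI-1 replicate 1, acalabrutinib replicate 2 or NGI-1 replicate 2 for NGI-1 against acalabrutinib in TMD8. For the other 3 pairs they were 1 instead of 2 without acalabrutinib replicate 1 or NGI-1 replicate 2 in HBL1, copanlisib replicate 1 or NGI-1 replicate 2 in HBL1, and NGI-1 replicate 1 or copanlisib replicate 2 in TMD8.

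With DMSO alone the lines also differed. At 3 h, 18 replication genes (41.9%) were higher in TMD8 than in HBL1, against 33.1% of all genes, and 8 (18.6%) were lower, against 32.2%. At 6 h, 13 (30.2%) were higher, against 33.2%, and 11 (25.6%) lower, against 32.6%. Both shares at 6 h were under those of all genes. At 24 h, 4 (9.3%) were higher, against 32.2%, and 31 (72.1%) lower, against 33.8%, with a median log2 difference of -0.50. E2F7, a repressor of the family, was higher in TMD8 at every time (1.93, 1.5 and 0.90 on the log2 scale), as were ORC6 (1.24, 0.85 and 0.36), E2F3 and POLE. GINS2 was lower in TMD8 at every time (-1.07, -1.05 and -1.72), as were GINS4, MCM2, MCM3, RFC4, RPA2, CHAF1A and E2F2.

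Other genes of the cell cycle were counted from 6 further lists, all of whose genes were tested. Of all genes, 14.9%, 15.5% and 16% were called lower at 24 h in TMD8 with NGI-1, acalabrutinib and copanlisib, and 11.4%, 11.4% and 17.8% in HBL1. With NGI-1, 15.7% were called higher in TMD8 and 7.95% in HBL1. Of 36 other replication genes, 17 were lower and 2 higher with NGI-1 at 24 h in TMD8 and 12 and 1 in HBL1. With acalabrutinib 14 were lower in TMD8 and 21 in HBL1, and with copanlisib 14 and 25. SSRP1, a subunit of the histone chaperone FACT, was lower in all 6 comparisons (log2 differences between -0.71 and -0.44), as were MCMBP, which binds MCM subunits (-0.72 to -0.40), and the nuclease and helicase DNA2 (-0.68 to -0.36). Genes of dNTP supply were lower in 8 of 10 with NGI-1 in TMD8 and 3 in HBL1, in 5 and 6 with acalabrutinib, and in 7 and 8 with copanlisib. RRM1, the large subunit of ribonucleotide reductase, lay between -0.62 and -0.31, CTPS1, which makes CTP, between -0.72 and -0.54, and the thymidylate synthase TYMS was called in 5 of 6.

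Of 15 genes for G1/S cyclins, kinases and inhibitors, 8 were lower with NGI-1 in each line, 8 and 9 with acalabrutinib in TMD8 and HBL1, and 7 and 12 with copanlisib. CCND3, a D-type cyclin, was lower in all 6 comparisons (-0.71 to -0.41), as were its kinase CDK4 (-0.68 to -0.44) and the S phase cyclin CCNA2 (-0.82 to -0.43). In the list of 14 RB family, E2F partner and DREAM genes, 2 were higher with each compound in TMD8, or 14.3%, near the 15.5% to 15.8% of all genes, and 3, 1 and 2 were lower with NGI-1, acalabrutinib and copanlisib, against 14.9%, 15.5% and 16% of all genes. In HBL1, 2, 3 and 3 were higher, against 7.95%, 7.62% and 12.7% of all genes, and 3, 4 and 7 lower, against 11.4%, 11.4% and 17.8%. E2F5, a repressor-type E2F, was higher in all 6 (0.55 to 0.96), as was RBL2, the pocket protein p130 of quiescent cells (0.43 to 0.67), and TFDP1, the partner that E2F factors need to bind DNA, was lower in all 6 (-0.72 to -0.31). Of 9 checkpoint genes, between 2 and 4 were lower, against 11.4% to 17.8% of all genes. With 9 genes, a count of 2 is not far above these shares. Among the 9, the kinase CHEK1 (-0.83 to -0.41) and the clamp subunit RAD1 (-0.49 to -0.24) were lower in all 6, and ATRIP was lower in 4 of 6.

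Counts of G2/M genes differed between the comparisons at 24 h. Of 16, 7 were lower with NGI-1 in TMD8 and 0 in HBL1, where 1 was higher, 6 and 13 with acalabrutinib in TMD8 and HBL1, and 10 and 15 with copanlisib. Between 11.4% and 17.8% of all genes were called lower in these comparisons, and 7.95% were called higher with NGI-1 in HBL1. AURKB, CCNB1 and CDC20, which act in mitosis, were each lower in 5 of 6, the exception being NGI-1 in HBL1 at -0.16, -0.23 and -0.18. With DMSO in HBL1 all 16 were higher at 24 h than at 3 h, at a median of 0.98, as were 31 of the 36 other replication genes, against 20.8% of all genes. In TMD8 11 of 16 were higher, at a median of 0.38, against 16.9% of all genes called higher. The part that a change in the share of cycling cells has in the differences from DMSO was not tested.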

How the data were processed

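RNA from 48 libraries was sequenced, and the authors deposited 1 table of raw gene counts, 2 replicates for each of 24 groups. HTSeq counting and the hg19 build are credited to the submitters' processing notes; the aligner, the annotation and all versions are not given in the sources used here. A row of library totals was left out. Genes without a gene ID numbered 3449 and held 0.815% of reads; they were kept. The 43 genes, the further lists and the comparisons were chosen with earlier results of these data known, so none is independent evidence.

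Counts were filtered with filterByExpr by group (13881 genes kept), scaled by TMM and fitted over all 48 libraries with 24 group means and 24 residual degrees of freedom in edgeR 4.0.16 (R 4.3.3), with glmQLFit and glmQLFTest. Each comparison had its own Benjamini-Hochberg adjustment, with calls at 0.05. Common dispersion came to 0.00539, which is a variation of 7.34% between libraries beyond counting. CPM values use the TMM library sizes, log2 differences are those of edgeR, and errors are standard errors. CPM is not scaled by gene length, so levels of different genes were not compared. Genes given with every library's value were, for each role, the one called most often at 24 h, and for each compound 3 genes picked by size of change. Those 3 moved in the same direction in both lines and had the largest change in whichever line that gene changed less. E2F2, CDC6, GINS3 and E2F1 were added after their values were seen.

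The fit was tested on simulated counts. Alternatives were DESeq2 1.42.0, its size factors in edgeR, no filter and a stricter filter on low counts, fits of TMD8 and HBL1 apart, replicate blocks, and each library left out in turn. A robust empirical Bayes step, the 40 genes matched by symbol alone, and each treatment at 24 h or 6 h against 3 h were added after seeing the data. Depth, 7165377 to 11999050 reads, limits the precision of genes with few reads.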

Additional observations from a re-analysis of the deposited data

Results flagged for a closer look

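Differences between the lines in the response at 24 h, tested as an interaction over TMD8 and HBL1, passed the threshold for these genes. The values are the compound's log2 difference from DMSO in TMD8 minus that in HBL1. Of all genes, 2.51%, 4.25% and 4.18% were called in these tests with NGI-1, acalabrutinib and copanlisib. With NGI-1 DSCC1 differed by -0.64. With acalabrutinib E2F2 differed by 0.77 and GINS3 by 0.78. With copanlisib E2F1 differed by 0.6, CDC6 by 0.61 and GINS3 by 0.8. Of these 6, GINS3 with acalabrutinib kept its call with each library left out in turn.

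The difference from DMSO also differed between 24 h and 3 h, tested as an interaction within each line. With NGI-1, 20 genes passed in TMD8, against 6.09% of all genes called lower, and 3 in HBL1, against 2.59%. With acalabrutinib 19 passed in TMD8, against 7.88%, and 22 in HBL1, against 2%. With copanlisib 17 genes passed in TMD8, against 5.82%, and 35 in HBL1, against 5.73%. All of them were more negative at 24 h. Whether these counts differ between the lines was not tested.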

How the results depend on the processing

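Of 218 calls against DMSO, DESeq2 kept 212, DESeq2's size factors in edgeR 213, no filter 212, a stricter filter 213, separate fits of the lines 211, the robust step 217 and the replicate block 218. With 1 library left out, 659 of 872 calls were kept, and none reversed. Counts below are of called replication genes. NGI-1 at 6 h in TMD8 gave 0 with DESeq2, other size factors or the stricter filter, and in HBL1 0 with other size factors. No filter gave 1 for NGI-1 against acalabrutinib in TMD8 at 24 h, 20 for NGI-1 against copanlisib in HBL1 at 24 h, 8 for the NGI-1 effect at 24 h minus 3 h in HBL1, 5 for the line difference with copanlisib, and a median of 0.64 for NGI-1 at 24 h against 3 h in HBL1. That median was 0.66 with separate fits or the stricter filter. Separate fits gave 3 for NGI-1 against acalabrutinib in HBL1 at 24 h, 0 for copanlisib in HBL1 at 3 h (also 0 with the 40 genes matched by symbol) and 6 for copanlisib in TMD8 at 6 h. The stricter filter gave 5 for the last, 1 for DMSO at 6 h against 3 h in TMD8, and a median of -0.47 for TMD8 against HBL1 with DMSO at 24 h. The cause was not tested.

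The labels do not say that a replicate number marks a shared culture or day, and with 2 replicates a group the data cannot establish a pairing. Deviations from the group mean in same-numbered treated and DMSO libraries correlated between 0.05 and 0.24, at 0.12 to 0.24 in HBL1, and 11 of 18 correlations were over 0.1. The summed CPM of the 43 genes was higher in replicate 2 of every TMD8 group and in replicate 1 of every HBL1 group at 3 and 6 h, and at 24 h in replicate 1 of every TMD8 group, with no shared order in HBL1. One replicate block over all libraries gave 1 for DMSO at 6 h against 3 h in TMD8, 7 for the NGI-1 effect at 24 h minus 3 h in HBL1 and 5 for the line difference with copanlisib. A replicate block within each line and time, which gives no value across times or lines of one treatment, gave more calls. Against DMSO these were, for NGI-1, 2 at 3 h and 5 at 6 h in TMD8 and 2 at 6 h in HBL1. For acalabrutinib they were 1 at 3 h and 4 at 6 h in HBL1, and for copanlisib 1 and 11 in TMD8 and 4 and 5 in HBL1. For the line difference they were 12 with NGI-1, 6 with acalabrutinib and 17 with copanlisib. For 24 h minus 3 h they were 34 and 23 with NGI-1 in TMD8 and HBL1, 32 and 38 with acalabrutinib, and 31 with copanlisib in TMD8. NGI-1 against acalabrutinib gave 7 at 6 h and 3 at 24 h in TMD8 and 4 and 22 in HBL1. NGI-1 against copanlisib gave 6 and 6 in TMD8 and 4 and 31 in HBL1. Copanlisib against acalabrutinib gave 2 at 6 h and 1 at 24 h in TMD8 and 1 at 24 h in HBL1.

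With each library left out, counts against DMSO at 24 h ran from 9 to 20 with NGI-1 in HBL1, 22 to 31 with acalabrutinib in TMD8 and 16 to 33 with copanlisib in TMD8. At 3 h they ran from 0 to 1 with NGI-1 or copanlisib in HBL1. At 6 h they were 0 with NGI-1 in both lines, 0 to 1 with acalabrutinib in both lines and copanlisib in HBL1, and 1 with copanlisib in TMD8. Line differences ran from 0 to 2 with NGI-1, 1 to 2 with acalabrutinib and 0 to 4 with copanlisib. For 24 h minus 3 h the ranges were 11 to 22 and 1 to 5 with NGI-1 in TMD8 and HBL1, 9 to 23 and 5 to 21 with acalabrutinib, and 0 to 25 and 22 to 33 with copanlisib. NGI-1 against acalabrutinib gave 0 to 1 in TMD8 and 1 to 2 in HBL1 at 6 h, and 0 to 3 in HBL1 at 24 h. NGI-1 against copanlisib gave 1 to 2 in each line at 6 h and 1 to 7 in HBL1 at 24 h. At 24 h against 3 h the counts were 9 to 18 with DMSO, 14 to 20 with NGI-1, 14 to 21 with acalabrutinib and 7 to 20 with copanlisib in TMD8, and 10 to 21 with acalabrutinib and 5 to 14 with copanlisib in HBL1. DMSO at 6 h against 3 h in HBL1 gave 0 to 7.

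Medians against DMSO at 24 h ran from -0.57 to -0.49 with NGI-1, -0.56 to -0.39 with acalabrutinib and -0.64 to -0.30 with copanlisib in TMD8, and -0.76 to -0.63 with copanlisib in HBL1. With copanlisib at 6 h in TMD8 they ran from -0.08 to 0.01. In HBL1 at 24 h against 3 h they ran from 0.82 to 0.96 with DMSO, 0.55 to 0.68 with NGI-1 and 0.26 to 0.40 with acalabrutinib, and at 6 h against 3 h from 0.06 to 0.35 with DMSO. The effect at 24 h minus 3 h in HBL1 ran from -0.40 to -0.24 with NGI-1 and -0.81 to -0.62 with copanlisib. NGI-1 against acalabrutinib in HBL1 at 24 h ran from 0.17 to 0.25, the line difference with copanlisib from 0.08 to 0.41, and TMD8 against HBL1 with DMSO at 24 h from -0.57 to -0.50.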
